A study of Bos grunniens with 6 samples.

Results

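This report describes miRNAs known from neurons, glia and pigment cells, as measured in cultured cells of the yak hair follicle. They were chosen by name: 8 names were searched for, and 5 matched an entry, bta-miR-128, bta-miR-204, bta-miR-211, bta-miR-9-5p and bta-miR-338, out of 2853 entries, of which 757 have cattle names (the prefix bta-, left out below) and 2096 are predicted. miR-137, miR-124a and miR-124b were not analysed here. The dermal papilla group holds 3 libraries of wild-type (WT) dermal papilla cells, mesenchymal cells at the base of the follicle, and the hair matrix group holds 3 libraries of WT hair matrix cells, the epithelial cells around the papilla that build the hair shaft. Both were isolated from skin of Bos grunniens and grown in DMEM/F12 with 10% FBS, 10 ng/mL IGF1 and 20 ng/mL EGF, so every group was in culture with the same growth factors. The labels call the libraries biological replicates without naming animals or cultures, so the p-values measure only the spread between these libraries, which may be technical.

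A miRNA guides the silencing complex to mRNAs that pair with its seed, bases 2 to 8 from the 5′ end, and miRNAs with 1 seed can share targets. miR-124, miR-9, miR-128 and miR-137 are known from the developing and mature brain, and miR-338 from oligodendrocytes and Schwann cells. miR-211 lies in an intron of TRPM1, a melanocyte gene driven by the pigment-cell factor MITF, and its relative miR-204 lies in an intron of TRPM3 and is known from retinal pigment epithelium. Hair follicles hold melanocytes among the matrix cells above the papilla.

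The sequences of the matched entries are shown because their seeds show which of them are related, with the seed in capitals, 5′ to 3′, as the deposited table gives them.
miR-128: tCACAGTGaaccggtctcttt
miR-204: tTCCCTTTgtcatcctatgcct
miR-211: tTCCCTTTgtcatcctttgcc
miR-9-5p: tCTTTGGTtatctagctgtatg
miR-338: tCCAGCATcagtgattttgttga
miR-204 and miR-211 share a seed, and over the 21 bases they have in common they differ by 1 substitution, A17T (miR-204 first, counted from the 5′ end). Each of the other 3 has a seed of its own, and no other cattle-named entry carries it. Mature miR-128 and miR-9 each come from more than 1 locus in mammals, and the reads cannot be assigned to a locus.

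Levels are given as RPM, an entry's reads after scaling of each library to the same size, from totals of 23904796 to 24693655 reads, of which 71.7% to 73.5% fell on listed entries. In 1 library, 3 reads taken as a floor correspond to 0.121 to 0.125 RPM, and floors and intervals cover counting error only. The label check followed the cell types: epithelial markers (6 entries, the miR-200 family and miR-205) summed to 82.9 to 108 RPM in dermal papilla cells, against 22064 to 22261 RPM in hair matrix cells, and mesenchymal markers (6 entries from the miR-143/145 and miR-199/214 loci) to 88413 to 91201 RPM in dermal papilla cells, against 1204 to 1421 RPM in hair matrix cells. Of the 7 epithelial names listed, 6 matched an entry. In bulk libraries, fewer cells of a type and less RNA per cell cannot be told apart.

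The set was led by miR-128 in both cell types, and its members did not move together. miR-128 was 13.3-fold higher in hair matrix cells, miR-204 was higher in dermal papilla cells by 32.6-fold, miR-9-5p differed by less than 2-fold, and miR-211 and miR-338 were at or near 0 in every library. The 5 entries summed to 626 ± 14.2 RPM in dermal papilla cells, against 6740 ± 154 RPM in hair matrix cells (SD, n = 3 each). miR-128 made up 80.3% ± 1.45 of that sum in dermal papilla cells, against 99.5% ± 0.0221 in hair matrix cells (SD, n = 3 each). miR-204 made up 13.3% ± 1.88 of it in dermal papilla cells, against 0.0381% ± 0.00247 in hair matrix cells (SD, n = 3 each).

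**Figure D1:**
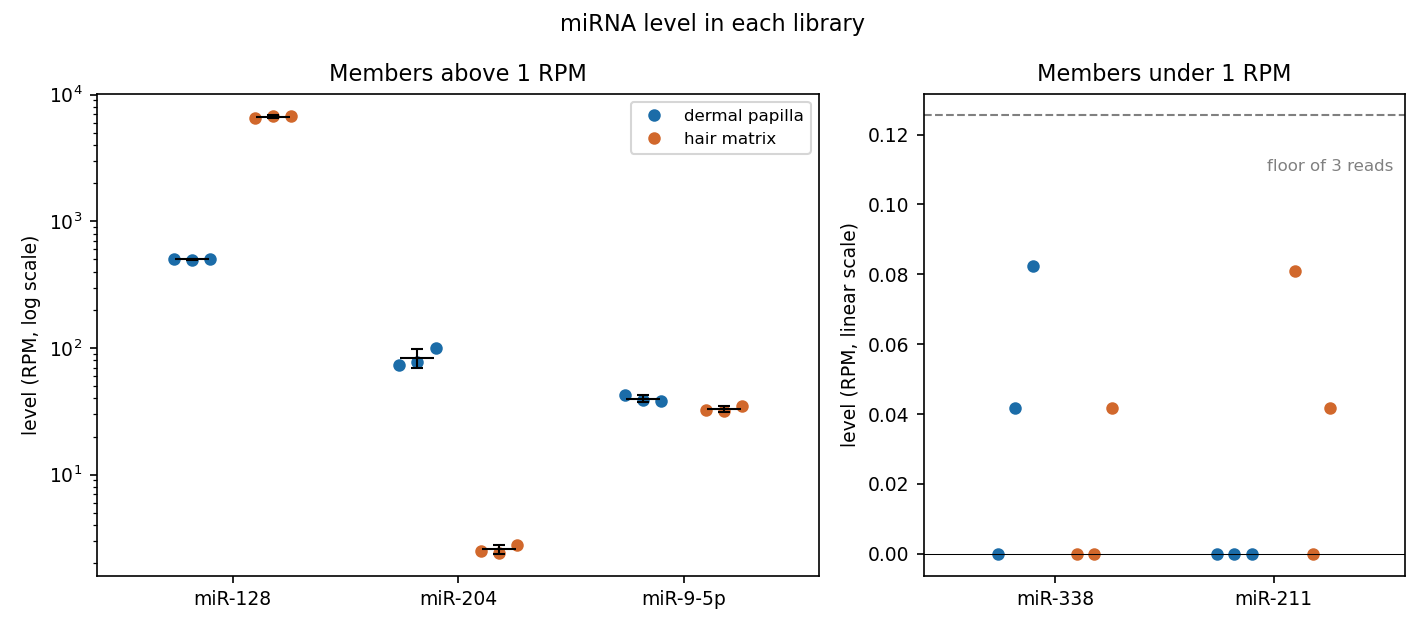
Level of each of the 5 miRNAs in RPM (left, log scale, for the 3 above 1 RPM; right, linear scale, for the other 2), with 1 point per library and, on the left, a bar at the mean with the SD as error. miR-128 sits at 499 to 505 RPM in dermal papilla cells, against 6540 to 6842 RPM in hair matrix cells, miR-204 lies the other way round, and no library of miR-211 or miR-338 reaches the dashed floor of 3 reads.

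miR-128 is enriched in neurons, where it is known in mice to dampen excitability. bta-miR-128 was at 504, 499 and 505 RPM in the dermal papilla libraries and at 6540, 6731 and 6842 RPM in the hair matrix libraries. The groups were far apart, and each was tight within itself. These levels placed it 64th to 67th of the listed entries in dermal papilla cells, against 13th or 14th in hair matrix cells, where it took 0.889% to 0.951% of listed reads. Its log2 change, dermal papilla minus hair matrix on the log2(RPM + 1) scale, was -3.73 ± 0.035 (SE; limma, Benjamini-Hochberg adjusted p = 3.88e-10). The coefficient of variation (SD over mean) was 0.689% in dermal papilla cells, which is under the 0.910% from counting alone. Of the 227 tested entries with a mean of at least 10 RPM there, 1.32% had a smaller one. In hair matrix cells the coefficient of miR-128 was 2.28%, against 0.247% from counting alone. The medians over such entries were 5.11% in the dermal papilla, against 4.86% in hair matrix cells. Epithelial markers were also higher in hair matrix cells. Their summed level in dermal papilla cells was 0.444% of that in hair matrix cells, with single markers at 0.235% to 2.88%, and the miR-128 level was 7.50%. The part of residual epithelial cells in the miR-128 level of dermal papilla cells was not tested.

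The 7 bases of the miR-128 seed also stand in miR-27a-3p and miR-27b, shifted by 1 base, and miR-27b was chosen for mention after its values were seen. The letters CACAGTG, read on the given strand within the first 10 bases, are in 5 of 2853 entries (0.175%), and 3 of those 5 have cattle names. The capitals mark these letters.
miR-128: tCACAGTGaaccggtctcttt
miR-27a-3p: ttCACAGTGgctaagttccg
miR-27b: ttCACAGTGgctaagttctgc
miR-27a-3p, reported to act on pigment and fat cell genes, was at 3448 ± 118 RPM in dermal papilla cells, against 28034 ± 1266 RPM in hair matrix cells (SD, n = 3 each), and its log2 change was -3.02 (limma adjusted p = 1.60e-09). miR-27b, transcribed from another cluster, was at 35522 ± 902 RPM in dermal papilla cells, against 34797 ± 1823 RPM in hair matrix cells, and its groups overlapped. Per 100 reads of miR-27b there were 1.42 ± 0.0266 reads of miR-128 in dermal papilla cells, against 19.3 ± 1.32 in hair matrix cells (SD, n = 3 each). A predicted entry lacked 1 G inside the miR-128 sequence and was otherwise the same. It held 0 to 2 reads per dermal papilla library and 6 to 20 per hair matrix library, at most 0.810 RPM in any library.

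bta-miR-204 was at 73.9, 77.9 and 99.4 RPM in the dermal papilla libraries and at 2.51, 2.41 and 2.79 RPM in the hair matrix libraries. Each dermal papilla library was above each hair matrix library, and dermal papilla replicate 3 was above the other 2 of its group. The reads behind these values were 1767, 1864 and 2410 in dermal papilla cells, against 62, 59 and 67 in hair matrix cells. The log2 change was 4.56 ± 0.122 (SE; limma adjusted p = 2.81e-08), and leaving out any 1 library gave 4.43 to 4.64. A pseudocount of 10 in place of 1 lowered it to 2.89, with the call kept. The coefficient of variation in dermal papilla cells was 16.4%, against 2.23% from counting alone, and 93.0% of the 227 tested entries with a mean of at least 10 RPM had a smaller one. Mesenchymal markers moved in the same direction. Their summed level in hair matrix cells was 1.42% of that in dermal papilla cells, with single markers at 1.03% to 1.76%, and the miR-204 level was 3.07%. The part of residual cells of the other type in the miR-204 level of hair matrix cells was not tested.

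bta-miR-211, the pigment-cell relative of miR-204, had 0 reads in each of the 3 dermal papilla libraries and 2, 0 and 1 reads in hair matrix libraries 1, 2 and 3. These counts are at or under the floor of 3 reads, which lies at 0.0416 RPM over the dermal papilla group and 0.0410 RPM over the hair matrix group, so no fold is given. Of the reads of miR-204 and miR-211 together, miR-204 had 6041 of 6041 in dermal papilla cells, against 188 of 191 in hair matrix cells (98.4%, exact 95% interval 95.5% to 99.7%). Reads that end before base 17 cannot tell them apart, and how such reads were assigned is not given in the sources used here. At this depth miR-211 was not detectable above the floor in either cell type.

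bta-miR-9-5p, which in the brain tunes the switch of neural progenitors to neurons, was at 42.7, 38.9 and 37.8 RPM in the dermal papilla libraries and 32.5, 31.9 and 35.0 RPM in the hair matrix libraries. The groups did not overlap, but the lowest dermal papilla library, at 37.8 RPM, was close to the highest hair matrix library, at 35.0 RPM. Its log2 change was 0.26 ± 0.074 (SE; 95% interval 0.08 to 0.43; limma adjusted p = 0.0142), a 1.2-fold difference of means, which is under the 2-fold minimum for a call. The sign was not kept under every scaling: centring each library on the median of the tested miRNAs gave -0.02 (limma adjusted p = 0.84), and quantile normalization gave -0.03 (limma adjusted p = 0.755). Median centring moved the median log2 change of all tested miRNAs by -0.27. Its adjusted p also exceeded 0.05 without a filter on low values (0.0951), without the 5 most abundant entries (0.0849) and without dermal papilla replicate 1 (0.0516).

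bta-miR-338, known to promote the maturation of myelinating glia, had 0, 1 and 2 reads in the dermal papilla libraries and 0, 0 and 1 reads in the hair matrix libraries. The count of each library is under the floor of 3 reads, the sum of 3 reads over the dermal papilla group is at it, and the groups overlap. Its 3′ part is shared with miR-7, an abundant miRNA of neuroendocrine cells, and the shared run of 13 bases is in capitals.
miR-338: tccagcatcAGTGATTTTGTTGa
miR-7: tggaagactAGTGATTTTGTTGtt
miR-7 was at 3046 to 3229 RPM in dermal papilla cells, against 4133 to 4840 RPM in hair matrix cells, while the miR-338 entry held at most 2 reads in any library. The entry miR-3065, chosen for mention after its sequence and values were seen, is the exact reverse complement of the miR-338 entry over 23 bases, with its own seed in capitals.
miR-3065: tCAACAAAatcactgatgctgga
It had 18, 14 and 11 reads in the dermal papilla libraries and 0, 1 and 4 reads in the hair matrix libraries. All libraries of miR-3065 were under 1 RPM, so it was not among the tested entries, and since it was chosen with its values known these reads are a description.

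Of the 5 entries, 3 passed the filter of 1 RPM in at least 3 libraries, and each of these 3 reached 1 RPM in all 6. Of the 3, 1 (miR-204) was a call for dermal papilla cells and 1 (miR-128) for hair matrix cells, at a limma adjusted p under 0.05 and at least 2-fold, while of all 503 tested entries 25.2% and 19.9% were called in these directions. All 3 had groups that did not overlap, as did 84.1% of the entries tested, and all 3 had an adjusted p under 0.05, as did 82.7%. By absolute log2 change miR-204 ranked 50th, miR-128 56th and miR-9-5p 420th of 503. Ratios within a library do not depend on its scaling: there were 167 ± 26.7 reads of miR-204 per 1000 reads of miR-128 in dermal papilla cells, against 0.383 ± 0.0250 in hair matrix cells (SD, n = 3 each), a 435-fold difference. Per 1000 reads of miR-128 there were 79.2 ± 4.96 reads of miR-9-5p in dermal papilla cells, against 4.94 ± 0.192 in hair matrix cells (SD, n = 3 each). The order of miR-204 and miR-9-5p differed between the cell types, with 212 ± 45.95 reads of miR-204 per 100 of miR-9-5p in dermal papilla cells, against 7.75 ± 0.207 in hair matrix cells (SD, n = 3 each).

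**Figure D2:**
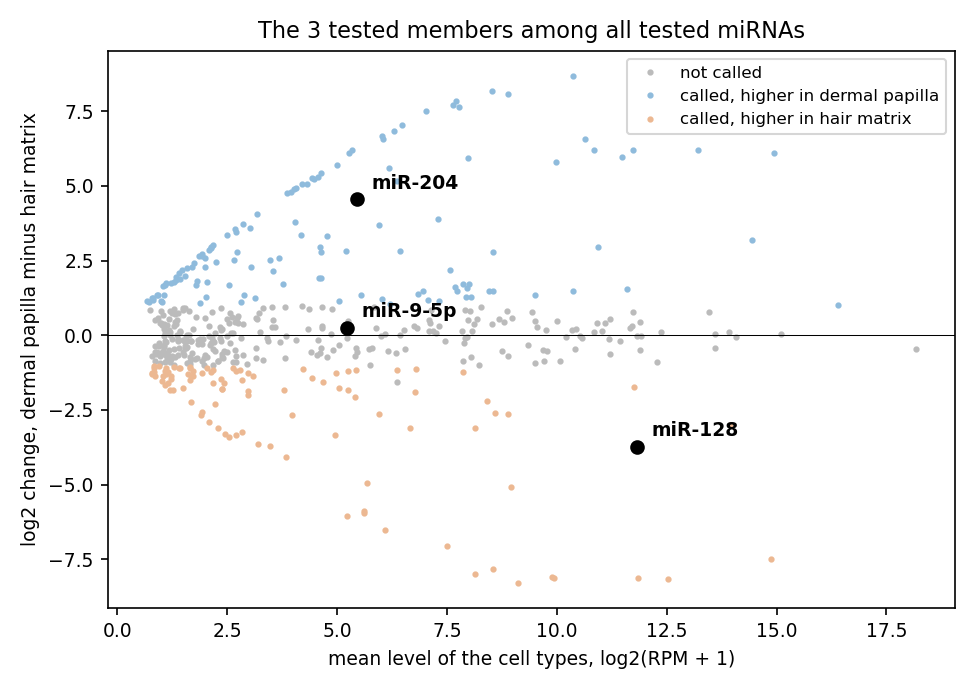
Log2 change (dermal papilla minus hair matrix) against the mean level of the 503 tested miRNAs, 1 point each, coloured by call, with the 3 tested members in black. miR-204 lies at 4.56 and miR-128 at -3.73, within the range of the other called miRNAs, and miR-9-5p lies at 0.26 among those not called.

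The cattle-named miRNAs whose profiles over the 6 libraries were most like each member were found by the root mean square difference of centred log2(RPM + 1) values among 410 candidates, as a description. For miR-204 they were miR-411c-3p, miR-409a and miR-487b, with differences of 0.19, 0.22 and 0.23. These had 27.2 to 31.6 RPM in dermal papilla cells and under 0.07 RPM in hair matrix cells, where miR-204 kept 2.57 RPM. For miR-128 they were miR-7858, miR-499 and miR-2318, with differences of 0.18, 0.19 and 0.20, at 0.0137 to 4.52 RPM in dermal papilla cells, against 9.65 to 55.7 RPM in hair matrix cells. For miR-9-5p they were miR-2285aj-5p, miR-15b and miR-93, with differences of 0.05, 0.06 and 0.07. None of these miRNAs has the seed of the member it resembled. With 2 groups of tight replicates, likeness here is mostly the size of 1 difference on the log2(RPM + 1) scale. That scale understates the change of low miRNAs. The miRNAs named for miR-204 passed the filter through dermal papilla libraries alone, and they differ from miR-204 in fold. In dermal papilla cells miR-7858 and miR-499 had means of 0.0137 and 0.374 RPM. These 2 passed the filter through hair matrix libraries alone, and they differ from miR-128 in fold.

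Other miRNAs known from brain were mostly low, and 11 of the 12 names listed matched an entry. Of 14 entries on that list 6 were tested, 4 were called with higher levels in dermal papilla cells, and 0 with higher levels in hair matrix cells, with limma, edgeR or DESeq2 (25.2% and 19.9% of all 503 tested entries were called in these directions with limma), and 2 had an adjusted p under 0.05 with higher levels in hair matrix cells at less than 2-fold. The median log2 change was 2.35, against -0.01 over all tested entries. Because the list was chosen with earlier results of these data known, these counts and medians are a description. One of the 4, miR-129-3p, named after its value was seen, passed the filter through dermal papilla libraries alone, and over the 5 entries at 1 RPM or more in all 6 libraries 3 were called and the median was 2.27. miR-132 and miR-212, which come from 1 transcript induced by neuronal activity, were at 42.5 ± 5.35 and 12.6 ± 1.31 RPM in dermal papilla cells, against 4.61 ± 0.378 and 1.82 ± 0.109 RPM in hair matrix cells (SD, n = 3 each). miR-129-5p, by name the opposite arm of miR-129-3p, was at 42.5 ± 0.913 RPM in dermal papilla cells, against 5.33 ± 0.193 RPM in hair matrix cells. The 4 called entries thus hold related miRNAs and are not independent of each other. Without any 1 dermal papilla library miR-129-3p failed the filter and 3 were called, and with a pseudocount of 10 only 2 were. miR-7 was not called, with a log2 change of -0.49. The untested entries, of miR-135a, miR-135b, miR-138, miR-153, miR-219, miR-488 and miR-873, were under 1 RPM in every library.

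Among miRNAs reported in mammals to act on MITF, KIT or pigmentation, 12 of the 13 names listed matched an entry. All 13 entries, with both arms of miR-27a, were tested. Of them 3 were called higher in dermal papilla cells, 6 higher in hair matrix cells and 4 were not called. The background shares of 25.2% and 19.9% apply here too, and the first count is near its share. The median log2 change was -0.87. This list too was chosen with earlier results of these data known, so its counts and median are a description. miR-148a, reported to repress MITF, was at 40437 ± 1495 RPM in dermal papilla cells, against 4421 ± 189 RPM in hair matrix cells (SD, n = 3 each). miR-221, a repressor of KIT, was at 1608 ± 56.9 RPM in dermal papilla cells, against 5292 ± 198 RPM in hair matrix cells (SD, n = 3 each). miR-25 was at 2840 ± 78.5 RPM in dermal papilla cells, against 1928 ± 58.5 RPM in hair matrix cells and was not called. miR-218 was at 159 ± 2.08 RPM in dermal papilla cells, against 3.52 ± 0.593 RPM in hair matrix cells, and is named after its value was seen. The largest changes of the list went the other way, also named after their values were seen. miR-183, miR-182 and miR-96, of the same cluster, had log2 changes of -8.13, -8.09 and -7.98. Entries of the list are therefore not independent of each other. The list holds miRNAs that other cell types also express, and the study's melanocyte content was not measured by it.

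**Figure D3:**
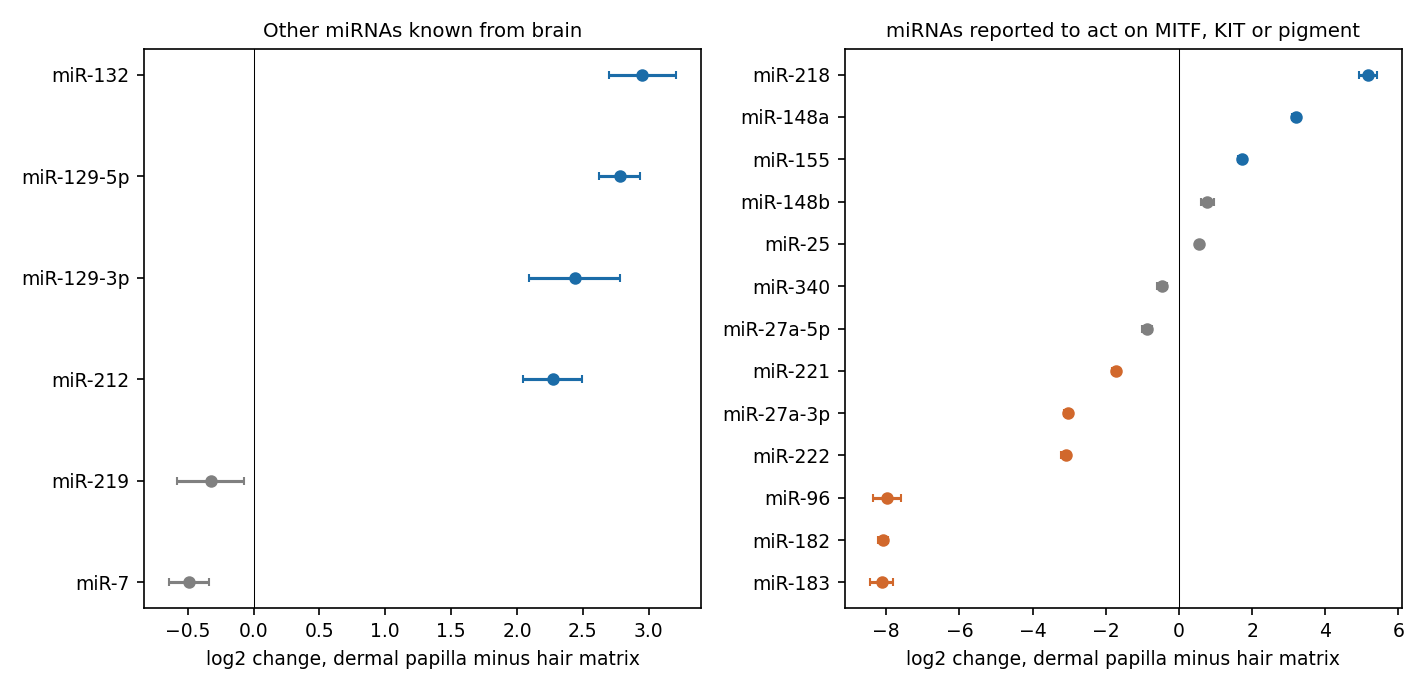
Log2 change (dermal papilla minus hair matrix) with its 95% interval for the tested entries of the brain list (left, 6 entries) and of the list tied to MITF, KIT or pigmentation (right, 13 entries), blue where called higher in dermal papilla cells, orange where called higher in hair matrix cells, grey where not called. The 4 called brain entries are all higher in dermal papilla cells, while the other list is split 3 to 6. Those 4 are both arms of miR-129, and miR-132 and miR-212 from a shared transcript.

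The summed glial, endothelial, blood and muscle markers lay between 2.51 and 72.7 RPM, and the melanocyte marker was miR-211, at 0 to 2 reads per library. The glial list, of which miR-338 is a member, summed to 2.51 to 3.46 RPM in dermal papilla cells, against 3.72 to 4.12 RPM in hair matrix cells, and 3 of its 4 entries were under 1 RPM in every library. The endothelial miR-126 entries summed to 3.68 to 4.70 RPM in dermal papilla cells, against 2.57 to 4.01 RPM in hair matrix cells. Blood entries summed to 18.4 to 21.6 RPM in dermal papilla cells, against 8.59 to 11.8 RPM in hair matrix cells. Only miR-451 was tested of the 6 blood entries, with means of 17.5 RPM in dermal papilla and 8.77 RPM in hair matrix cells. Muscle entries summed to 57.9 to 72.7 RPM in dermal papilla cells, against 24.6 to 26.3 RPM in hair matrix cells. Of the 4 muscle entries only miR-1 was tested, with means of 66.0 and 25.4 RPM in the same order. The part of cells with these glial, endothelial, blood and muscle markers in the values of miR-128, miR-204 and miR-9-5p was not tested.

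**Figure D4:**
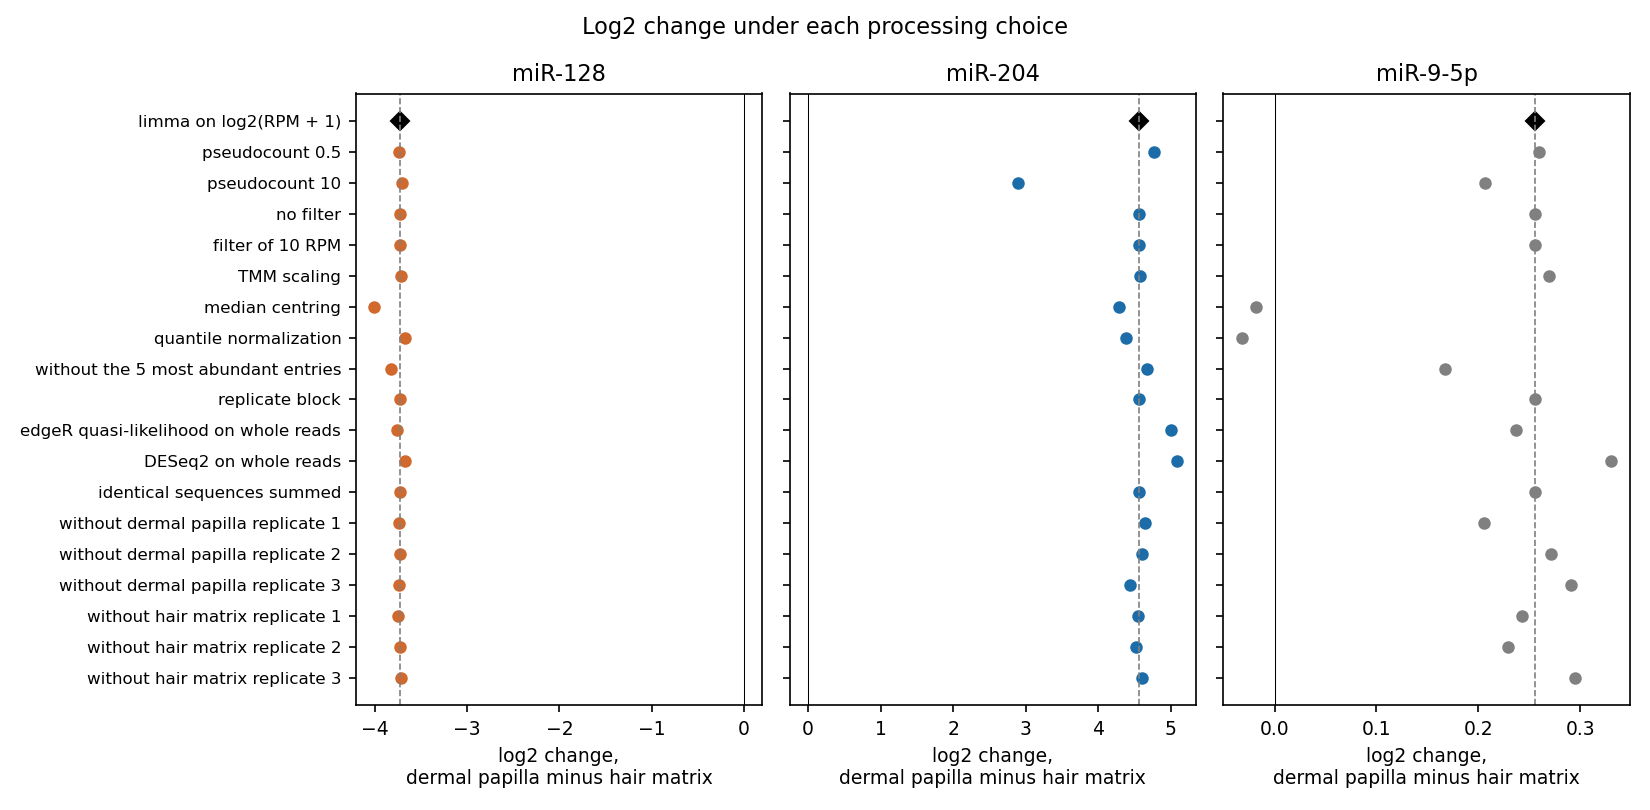
Log2 change (dermal papilla minus hair matrix) of the 3 tested members under each processing choice, 1 point per choice, with the reported value as a black diamond and a dashed line. miR-128 stays between -4.01 and -3.67 and miR-204 between 2.89 and 5.09, while miR-9-5p lies between -0.03 and 0.33 and crosses 0.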

How the data were processed

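Small RNA from 3 dermal papilla and 3 hair matrix libraries was made from 1 µg of total RNA with TruSeq small RNA kits, per the labels' protocols. Trimmomatic, HISAT2 2.2.1.0 and DESeq 1.20.0 are listed, without roles, per the submitters' processing notes. For genome build, miRNA reference and reads with several matches, details were not given in the sources used here. Deposited values, which the authors call TPM, are RPM: 100% of them in each library are whole multiples of 1 step within 0.001 read, so whole reads and library totals were recovered. All 6 value columns were used.

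The 503 entries that reached 1 RPM in 3 or more libraries were fitted as log2(RPM + 1) in limma 3.58.1 under R 4.3.3, using a single term for cell type, a variance trend and Benjamini-Hochberg adjustment over the 503. Calls combine an adjusted p under 0.05 with a change of 2-fold or more. The sign of a log2 change is that of dermal papilla minus hair matrix, and folds compare mean RPM. The log2(RPM + 1) scale understates the change of low miRNAs. No replicate pair agreed within counting noise (chi-square per degree of freedom 26.6 to 76.8). Named were all members, cattle-named entries with a member's seed, the 3 tested miRNAs most like each tested member, and the 4 most abundant tested entries of each list; others are said to be chosen after their values were seen. Members and lists were chosen with earlier results of these data known. Simulated data with known changes were used to check the limma step. edgeR 4.0.16 and DESeq2 1.42.0 were run on the recovered reads as alternatives, beside other pseudocounts, filters and scalings, the replicate number as a block, summing identical sequences and leaving out libraries. Leaving out libraries with the tested entries held fixed was added after the data were seen.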

Additional observations from a re-analysis of the deposited data

How the results depend on the processing

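miR-204 kept its call for dermal papilla cells, and miR-128 its call for hair matrix cells, under each of 25 alternatives, at log2 changes of 2.89 to 5.09 and -4.01 to -3.67. The lower end for miR-204 came from a pseudocount of 10. Leaving out 1 library gave -3.75 to -3.72 for miR-128, 4.43 to 4.64 for miR-204 and 0.21 to 0.30 for miR-9-5p. The miR-9-5p change was reversed by median centring (-0.018) and quantile normalization (-0.032). Centring moves every log2 change by the same -0.27, which by itself takes 0.26 past 0. The cause of the reversal under quantile normalization was not tested. With no fold minimum the miR-9-5p change of 0.26 counts as a call, which makes 2 members called higher in dermal papilla cells. Over all tested miRNAs, 127 had calls in the dermal papilla direction and 100 in the hair matrix direction. These counts became 77 and 40 with a pseudocount of 10, 80 and 47 with a filter of 10 RPM, 109 and 137 after median centring, 112 and 128 after quantile normalization, 137 and 143 without the 5 most abundant entries, and 212 and 204 with no fold minimum. Leaving out 1 library gave 65 to 128 and 60 to 104; the low counts come from the filter on low values, since fewer entries were tested, and with the tested entries held fixed no count fell under 125 and 100. Correlations of deviations from the group mean were 0.14, 0.08 and -0.27 for same-numbered libraries and -0.43 to 0.39 for differently numbered ones. Deviations within a group sum to 0, so these correlations depend on each other and cannot settle whether libraries were paired. With the replicate block, miR-128 and miR-204 kept their calls at log2 changes of -3.73 and 4.56, and miR-9-5p, at 0.26, was again not called. Depth limits miR-211 and miR-338, whose counts of 0 to 2 reads per library allow no comparison.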
